A study of Ovis aries with 16 samples.

Results

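MIR133, LOC105604459 and LOC105603743 were the rows that took the largest share of their RNA class in skeletal muscle of control sheep. MIR133 was the leading row of the microRNA (miRNA) table, and the other two were the leading rows of the long non-coding RNA (lncRNA) table. They are 3 of the 4920 rows measured in the series, 1 of 105 miRNA rows and 2 of 2973 lncRNA rows. The rows were chosen by their share of reads in control muscle, so their height in muscle is given here as a description, with no test. In control muscle MIR133 took 52.5% ± 2.39 (SD, n = 4) of the miRNA reads, and the row just outside the choice, MIR26A, took 7.24% ± 0.312. LOC105604459 took 56.7% ± 1.40 and LOC105603743 32.7% ± 2.28 of the lncRNA reads (SD, n = 4), and the next lncRNA row, LOC114118399, took 2.35% ± 0.395.

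Liver and muscle of 8 female sheep were profiled by small RNA sequencing; of these ewes, 4 were controls (ewes 98, 131, 132 and 201) and 4 had received testosterone treatment before birth (prenatal T, ewes 48, 185, 233 and 255). Both tissues came from the same ewes, which gives 16 libraries in 4 groups of 4, and replicates of a group are different animals. The labels used here give no dose, time of treatment, age or muscle. Libraries held 250251 to 887739 reads over the 4 RNA classes (miRNA, snoRNA, snRNA and lncRNA) in liver and 239871 to 1819374 in muscle, with the muscle of ewe 255 the shallowest.

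miR-133 is a miRNA of skeletal and heart muscle, best known for its part in the growth and differentiation of muscle precursor cells, where it lowers the output of mRNAs that carry matching sites. Some of its copies are cut from longer transcripts that also carry miR-1, and such gene pairs recur in mammalian genomes. One of these pairs lies, in human and mouse, in an intron of MIB1, an E3 ubiquitin ligase that acts on the ligands of Notch. The functions of LOC105604459 and LOC105603743 are not known from the files. A lncRNA row of a small RNA library counts short reads that fall in the interval of a long gene, so it need not measure the long transcript itself.

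The RefSeq gene table of sheep (assembly ARS-UI_Ramb_v3.0, used here for names and neighbours only, because the build of the deposited tables is not given in the sources used here) placed the rows in relation to other genes. MIR133 lies between SLCO4A1, a transporter of organic anions, and GATA5, a transcription factor of the heart and gut. LOC105604459 lies on a different chromosome, inside MIB1, with GATA6 as the protein-coding neighbour before it. That table lists 1 MIR133 gene and 106 miRNA genes, and 0 of these miRNA genes lie inside MIB1. LOC105603743 had no match in the table and is described by its values alone. No sequence of the 3 rows was at hand, so whether they hold similar stretches of sequence was not tested, and values of rows that share reads would be uncertain.

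The tissue labels were checked first against marker miRNAs. Of the 5 liver markers listed, MIR148A and MIR194 had rows in the table, and together they held 82209.5 to 124298 reads per 1000000 reads of the 4 classes in liver, against 907 to 1795 in muscle. Of the 9 muscle markers, MIR133 was the only one with a row, so no other muscle miRNA was at hand to set beside it. No row matched MIR122, the leading liver miRNA, or MIR1, a partner of miR-133.

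MIR133 was the most abundant miRNA row in all 8 muscle libraries and ranked between 35 and 50 in the livers. The authors deposited normalised reads (reads over a library's size factor), scaled within a tissue and a class. In control muscle the values were 237966, 198090, 205567 and 233840 normalised reads in ewes 98, 131, 132 and 201. In prenatal T muscle they were 235175, 215141, 250824 and 110969 in ewes 48, 185, 233 and 255. Ewe 255 lay below all others, at 0.475 of the median of the other 7, and the other 3 prenatal T values lay among or above the controls.

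In liver MIR133 was low but present in every library. Control livers held 816, 255, 138 and 170 normalised reads in ewes 98, 131, 132 and 201, from 614, 196, 137 and 175 reads. Prenatal T livers held 148, 123, 160 and 164 in ewes 48, 185, 233 and 255, from 300, 144, 97 and 185 reads. The groups overlapped, and the liver of ewe 98 stood 5.11 times above the median of the other 7. As a share of miRNA reads MIR133 ran from 0.0290% in the liver of ewe 185 (95% Wilson interval 0.0246 to 0.0341%) to 0.227% in that of ewe 98 (0.210 to 0.246%), and these intervals cover counting error only.

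LOC105604459 followed MIR133 closely in muscle and more loosely in liver. Its muscle values were 226551, 229414, 218505 and 267268 normalised reads in control ewes 98, 131, 132 and 201. They were 228873, 259219, 268343 and 113212 in prenatal T ewes 48, 185, 233 and 255. Again ewe 255 lay below the rest, at 0.493 of the median of the other 7. In liver the values were 694, 385, 278 and 279 in the controls and 328, 188, 278 and 249 in the prenatal T ewes, in the same order. The liver of ewe 98 was highest, at 2.50 times the median of the other 7. The row ranked between 13 and 19 among lncRNA rows of the livers. Without the livers of ewes 98 and 131, MIR133 ran from 123 to 170 and LOC105604459 from 188 to 328. The 328 of ewe 48 went with a MIR133 value of 148.

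LOC105603743 differed from the other rows in which libraries stood apart. Muscle values were 129397, 129637, 116023 and 172192 normalised reads in control ewes 98, 131, 132 and 201, and 150638, 191973, 165002 and 153140 in prenatal T ewes 48, 185, 233 and 255. The groups overlapped, and ewe 255, low for both other rows, was at 1.02 times the median of the other 7. In the muscle of ewe 255 LOC105603743 was the leading lncRNA row, a place that LOC105604459 held in the other 7 muscles. Liver values were 271, 169, 17.0 and 14.97 in the controls, from 295, 133, 17 and 17 reads, and 30.4, 36.1, 29.1 and 25.4 in the prenatal T ewes, from 48, 46, 16 and 26 reads. The livers of ewes 98 and 131 were 9.31 and 5.82 times the median of the respective other 7, while the other 6 livers lay between 14.97 and 36.1.

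**Figure D1:**
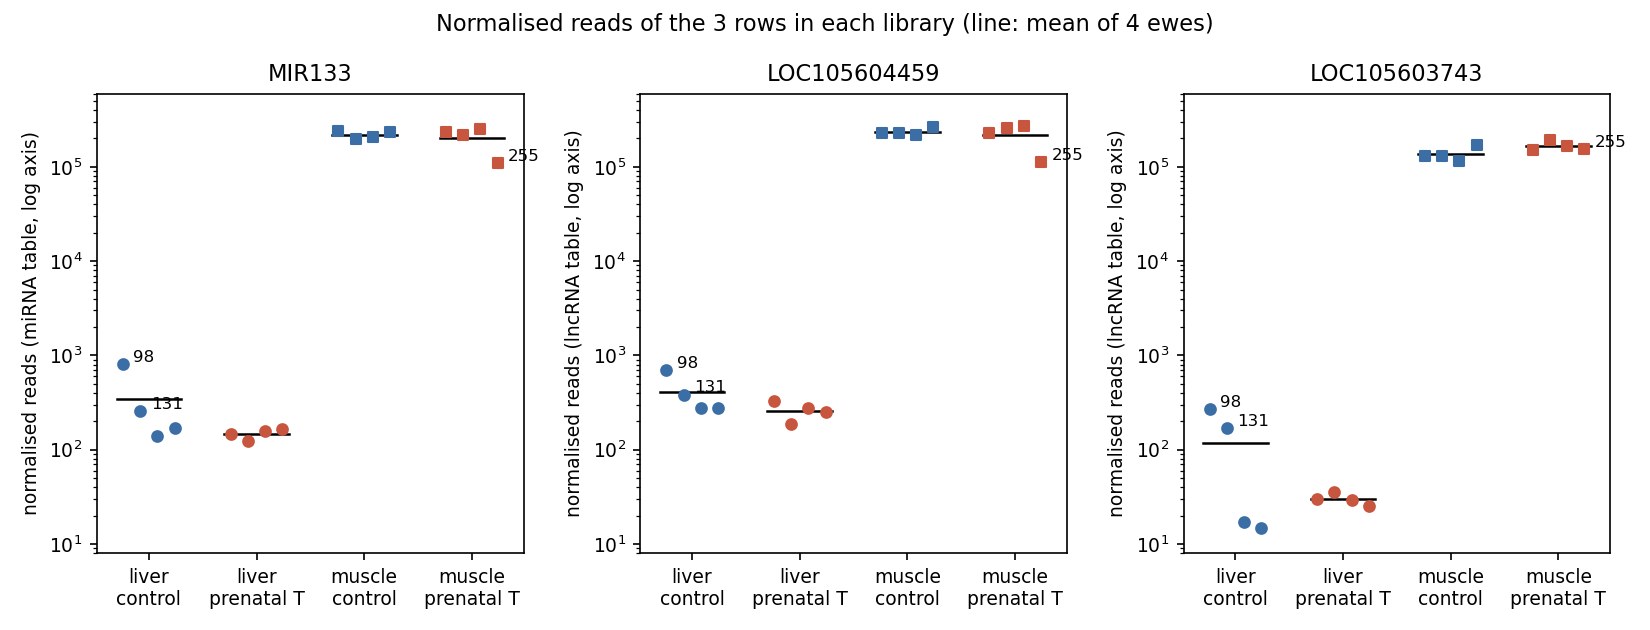
Normalised reads (log axis) of MIR133, LOC105604459 and LOC105603743 in each of the 16 libraries, by tissue and treatment; points are libraries and lines are means of 4 ewes. On this scale the muscle of ewe 255 lies low for MIR133 (110969) and LOC105604459 (113212) and among the others for LOC105603743 (153140). The liver of ewe 98 is the highest liver for each row.

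Because the deposited scales differ between tissues, liver and muscle of a ewe were set side by side as reads per 1000000 reads of the 4 classes. The muscle level of MIR133 was 148 to 1085 times the liver level of the same ewe, with a median of 734. For LOC105604459 the fold was 129 to 693, with a median of 450, and for LOC105603743 it was 189 to 5336, with a median of 3130. Ewe 98, whose liver was highest, had the lowest fold for each row. Together the 3 rows held 63.02 to 74.8% of the reads of a muscle library and 0.0706 to 0.493% of those of a liver library. The lncRNA class took 50.3% of muscle reads and 15.4% of liver reads on average. Without LOC105604459 and LOC105603743 it took 8.77% ± 1.64 in muscle and 15.3% ± 0.89 in liver (SD, n = 8 each). The reads of MIR133 stayed in that total, which lowers the muscle share. These shares therefore do not compare the rest of the lncRNA class between tissues. In bulk tissue, fewer cells of a type and less RNA per cell cannot be told apart.

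The number of LOC105604459 reads was close to the number of MIR133 reads in every muscle library. In ewe 98 muscle held 259726 reads of LOC105604459 and 241473 of MIR133, and in ewe 255 it held 46317 and 42188. Reads of LOC105604459 per MIR133 read were 1.08, 1.07, 1.07 and 1.06 in control ewes 98, 131, 132 and 201, and 1.07, 1.06, 1.06 and 1.10 in prenatal T ewes 48, 185, 233 and 255. The mean was 1.07 ± 0.0119 (SD, n = 8), a coefficient of variation of 1.11%, although MIR133 itself ran from 42188 to 479609 reads. LOC105604459 therefore exceeded MIR133 by 6.09 to 9.79% of the MIR133 reads in muscle. In ewe 255, where the levels of both rows were lowest, the ratio was 1.10, the highest of the 8.

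In liver the ratio was higher and more variable. It was 1.23, 1.55, 2.03 and 1.81 in control ewes 98, 131, 132 and 201, and 1.73, 1.67, 1.58 and 1.38 in prenatal T ewes 48, 185, 233 and 255. The mean was 1.62 ± 0.249 (SD, n = 8), a coefficient of variation of 15.3%. The liver of ewe 98, with the most MIR133, had the lowest ratio. As a difference, liver held 143, 107, 141 and 142 more reads of LOC105604459 than of MIR133 in the controls and 218, 96, 56 and 70 more in the prenatal T ewes, in the same order.

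**Figure D2:**
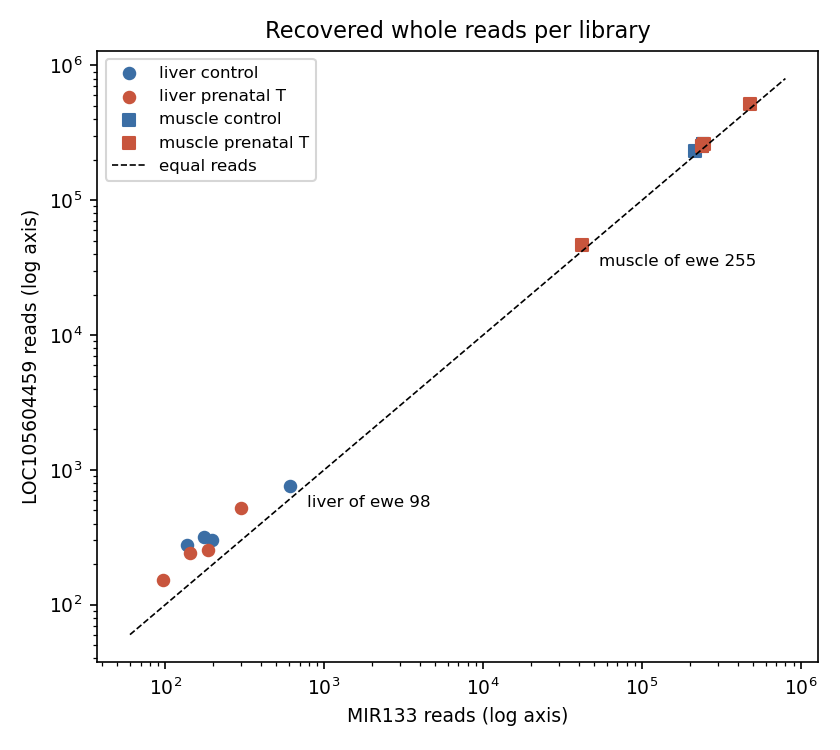
Reads of LOC105604459 against reads of MIR133 in the 16 libraries (both axes log), with a dashed line at equal reads. Muscle libraries lie along the line, including that of ewe 255 with 42188 and 46317 reads, and liver libraries lie above it.

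To see how often a lncRNA row follows a miRNA row in these tables, every lncRNA row whose gene interval overlaps the gene of a measured miRNA was listed. There were 8 such pairs among the 1280 lncRNA rows that matched the gene table. The table used gives no strand, so reads of the same and of the opposite strand could not be separated. LOC105611269 held 1.04 reads per read of MIR181A-2 in muscle (median, 1.03 to 1.06 over 8 libraries) and 1.09 in liver (1.06 to 1.12). LOC105605445 held 1.24 reads per read of MIR221 in muscle (1.19 to 1.28) and 1.22 in liver (1.197 to 1.32). The muscle ratio of LOC105604459 to MIR133, a pair of genes on different chromosomes, lies between those medians.

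The other overlapping pairs had lower ratios. LOC105602212 held 0.203 reads per read of MIR125B in muscle (0.122 to 0.279) and 0.462 in liver (0.366 to 0.633). LOC114117256 held 14 reads to 215 of MIR29B-1 over the 8 muscle libraries. For LOC106991099 with MIR29A and LOC114114896 with MIR143 the muscle reads were 59 to 15590 and 6 to 70844. LOC114116445 with MIR30A and LOC114116349 with MIR30B had 0 reads on the lncRNA row in all 16 libraries. An overlap with a miRNA gene thus went with a ratio of 1 or more in 2 of the 8 pairs. Of the lncRNA genes that lie between MIR133 and its protein-coding neighbours, LOC114117601 had 1 read over the 8 muscle libraries and 0 over the 8 livers. No row matched LOC114117482 or LOC121816186.

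**Figure D3:**
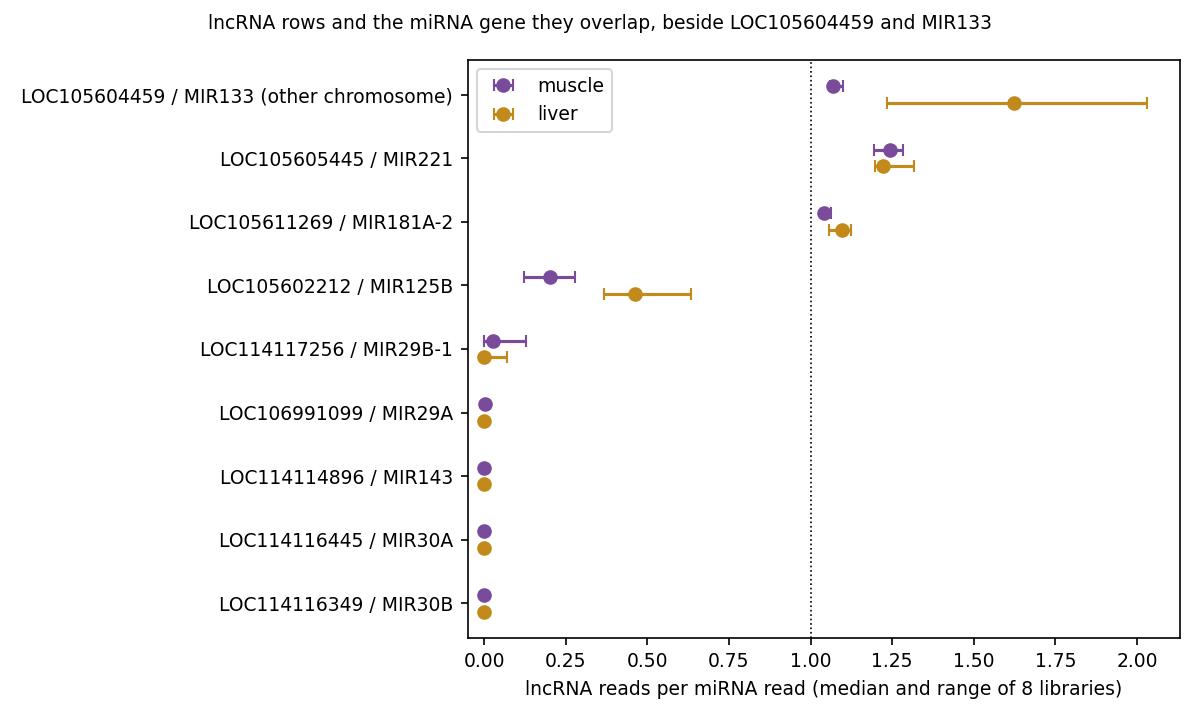
Reads of a lncRNA row per read of a miRNA row for the 8 pairs whose genes overlap and for LOC105604459 with MIR133, whose genes lie on different chromosomes; points are medians and bars the range of 8 libraries in muscle and in liver. The muscle ratio of LOC105604459 to MIR133 (1.06 to 1.10) lies beside those of LOC105611269 to MIR181A-2 and LOC105605445 to MIR221, and 5 pairs lie near 0.

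LOC105603743 kept a looser ratio to MIR133. Its reads per MIR133 read in muscle were 0.614, 0.606, 0.566 and 0.685 in control ewes 98, 131, 132 and 201, and 0.707, 0.788, 0.652 and 1.49 in prenatal T ewes 48, 185, 233 and 255. Per LOC105604459 read they were 0.571, 0.565, 0.531 and 0.644 in the controls and 0.658, 0.741, 0.615 and 1.35 in the prenatal T ewes. Ewe 255 lay far above the other 7 muscles, and the prenatal T ewe with the lowest ratio, ewe 233, lay below control ewe 201. In liver the ratio to MIR133 was 0.480, 0.679, 0.124 and 0.0971 in the controls and 0.160, 0.319, 0.165 and 0.141 in the prenatal T ewes. The livers of ewes 98 and 131 thus came near the muscle ratios, while the other livers lay between 0.0971 and 0.319.

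**Figure D4:**
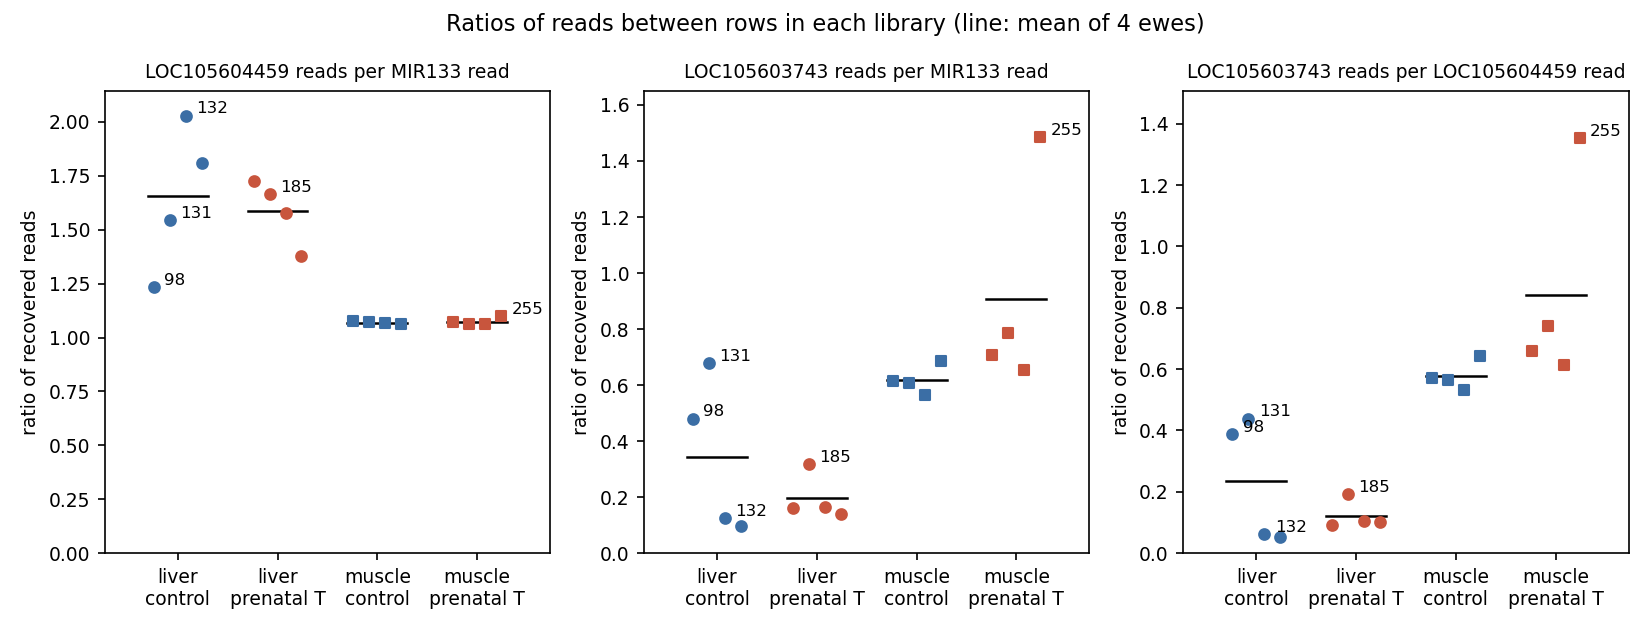
Ratios of reads between the 3 rows in each library, by tissue and treatment; points are libraries, lines are means of 4 ewes, and libraries named in the text carry their ewe number. LOC105604459 per MIR133 stays between 1.06 and 1.10 in muscle, and LOC105603743 per MIR133 reaches 1.49 in the muscle of ewe 255.

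Libraries that stood apart were set beside other markers, without a test of what sets them apart. The muscle of ewe 255 was the only muscle library whose library number in the labels falls in a later run of numbers, which it shares with 6 livers. The other 7 muscles and the livers of ewes 98 and 48 carry numbers 49 to 63, and the labels do not say what the numbers stand for. In that muscle the 3 vessel and stroma markers with a row (MIR10B, MIR143 and MIR199A, of 6 listed) held 9234 reads per 1000000, against 12573 to 20598 in the other 7. The white blood cell marker MIR150 (1 of 5 listed) held 2514, the highest of the 8, against 923 to 1910 in the others. The red blood cell marker MIR16B (1 of 4 listed) held 2243, also the highest. In normalised reads MIR150 held 1586 in that muscle, below 1693 in ewe 98 and 1690 in ewe 48. MIR16B held 1415 normalised reads there, still the highest. Reads per 1000000 of other rows rise where the 3 members take less. The members took 63.02% of the reads in this muscle, against 67.2 to 74.8% in the other 7. In the liver of ewe 98 MIR150 held 1472 reads per 1000000, the highest of the livers (747 to 1265 in the others). In normalised reads it held 662 there, close to 657 in the liver of ewe 185. The liver markers MIR148A and MIR194 held 85618 reads per 1000000 in the liver of ewe 98, inside the range of the other livers. In the liver of ewe 131 MIR150 held 920 and the liver markers 110785. The vessel and stroma markers held 59548 reads per 1000000 there, the lowest of the livers (62329 to 97308 in the others). In normalised reads they held 29255 there, above 27864 in the liver of ewe 233. The part of these markers and of the library numbers in the member values was not tested.

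Whether treatment before birth moved the rows was asked within each tissue, a contrast the choice of rows did not use. Prenatal T and control libraries were compared with limma on log2(normalised reads + 1), and p-values were Benjamini-Hochberg adjusted over all rows of the class with a mean of at least 5. In muscle 0 of 3 rows passed an adjusted p of 0.05. Over all rows, 0% of 64 miRNA rows and 3.51% of the lncRNA rows tested passed in muscle. At an unadjusted p under 0.05, limma had 5 miRNA rows in muscle, and edgeR and DESeq2 on the recovered reads had 3 each. After adjustment each method called 0 miRNA rows. Among lncRNA rows limma called 4, edgeR 4 and DESeq2 5, and the 2 leading rows were not among them.

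MIR133 in muscle averaged 2.189e+05 ± 2.0e+04 normalised reads in controls and 2.03e+05 ± 6.31e+04 in prenatal T ewes (SD, n = 4 each). Its log2 fold change was -0.17 (SE 0.21, 95% interval -0.62 to 0.27, limma adjusted p = 0.788). For LOC105604459 the log2 fold change in muscle was -0.19 (SE 0.25, interval -0.75 to 0.37, limma adjusted p = 0.949). Without ewe 255 both turned to 0.10, with limma adjusted p of 0.934 and 0.965, so the sign of either rests on that library. With edgeR on the recovered reads they were -0.10 for MIR133 and 0.00625 for LOC105604459. LOC105603743 averaged 1.368e+05 ± 2.44e+04 in controls and 1.652e+05 ± 1.89e+04 in prenatal T muscle (SD, n = 4 each), a log2 fold change of 0.28 (SE 0.16, interval -0.07 to 0.63, limma adjusted p = 0.775). That difference was 0.32 without ewe 255, 0.41 with edgeR (unadjusted p = 0.0162, adjusted 0.237) and 0.36 with DESeq2 (unadjusted p = 0.0079, adjusted 0.125). Scaled to the lncRNA reads without the 2 leading rows it was 0.61 (limma interval 0.20 to 1.03, adjusted p = 0.162), a scaling that moved the median of all lncRNA rows to 0.24. It was positive under each of these settings and passed the adjusted threshold under none.

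In liver 0 of 3 rows passed, beside 0% of 81 miRNA rows and 0% of 121 lncRNA rows, and edgeR and DESeq2 called 0 rows of either class. At an unadjusted p under 0.05 limma had 0 rows, edgeR 3 miRNA and 2 lncRNA rows, and DESeq2 1 and 2. MIR133 and LOC105603743 were among the rows of edgeR and DESeq2. MIR133 averaged 345 ± 318 normalised reads in control and 149 ± 18.5 in prenatal T livers (SD, n = 4 each), a log2 fold change of -0.84 (SE 0.42, interval -1.74 to 0.07, limma adjusted p = 0.959). It was -1.16 with edgeR (unadjusted p = 0.0172, adjusted 0.899) and -1.24 with DESeq2 (unadjusted p = 0.0043, adjusted 0.348), and -0.30 in limma without ewe 98. LOC105604459 averaged 409 ± 197 and 261 ± 58.3 (SD, n = 4 each), a log2 fold change of -0.57 (SE 0.34, limma adjusted p = 0.890), and -0.28 without ewe 98. LOC105603743 averaged 117.9 ± 125 and 30.2 ± 4.44 (SD, n = 4 each), a log2 fold change of -0.96 (SE 0.86, interval -2.88 to 0.96, limma adjusted p = 0.890). With edgeR it was -1.79 (unadjusted p = 0.0488, adjusted 0.953) and with DESeq2 -1.97 (unadjusted p = 0.0124, adjusted 0.998), and in limma it was -0.24 without ewe 98 and -0.46 without ewe 131. Control livers were thus wider in spread than prenatal T livers for each row, through ewes 98 and 131. Within the 6 livers of the later run of library numbers, 3 of each group, the log2 fold changes were -0.30, -0.40 and -0.25 for MIR133, LOC105604459 and LOC105603743.

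**Figure D5:**
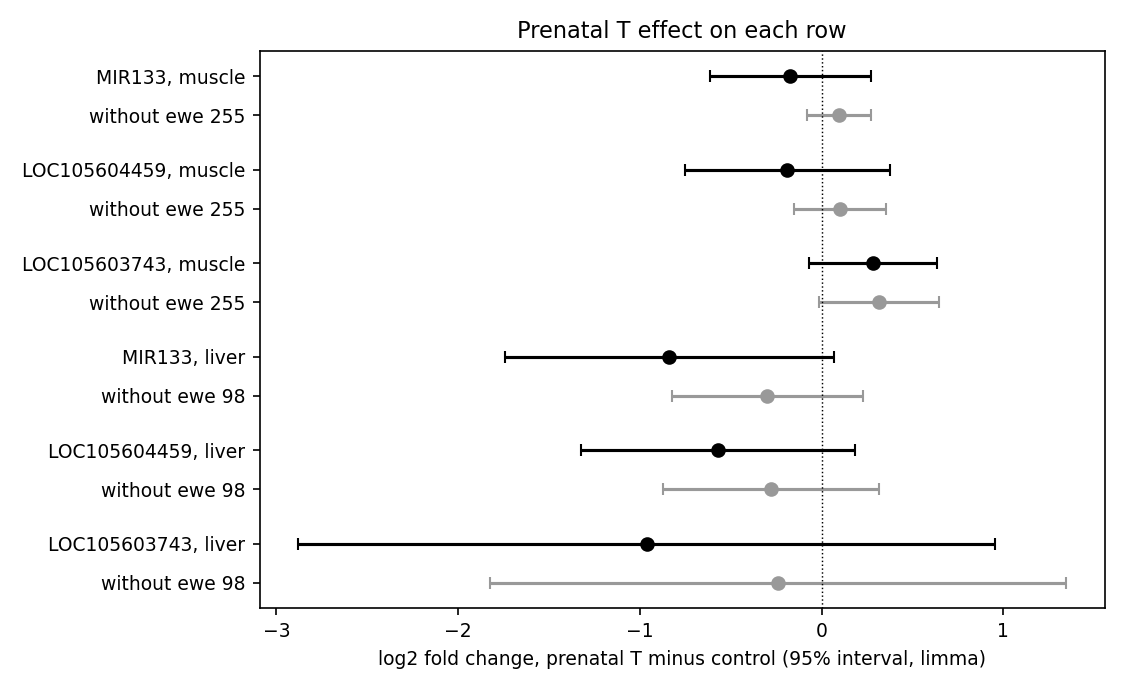
Log2 fold change of each row, prenatal T minus control, in muscle and in liver, with 95% intervals from limma; black is all 8 libraries of the tissue, grey leaves out the library that stands apart (ewe 255 in muscle, ewe 98 in liver). All 12 intervals include 0, and for MIR133 in muscle the point moves from -0.17 to 0.10.

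Ratios of reads within a library need no size factor, so they were also compared between treatments, with exact two-sided permutation tests over the 70 assignments of 4 and 4 ewes (smallest possible p = 0.0286) and adjustment over the 6 ratios tested. LOC105604459 per MIR133 read differed by 0.006 on the log2 scale in muscle (exact p = 0.8, adjusted 0.857). In muscle LOC105603743 per MIR133 read averaged 0.618 ± 0.0493 in controls and 0.908 ± 0.389 in prenatal T ewes (SD, n = 4 each), a log2 difference of 0.475 (exact p = 0.0571, adjusted 0.171). Per LOC105604459 read it averaged 0.578 ± 0.0477 and 0.842 ± 0.345, a log2 difference of 0.469 (exact p = 0.0571, adjusted 0.171). Without ewe 255 these differences were 0.211 and 0.215 (exact permutation p = 0.0857 for both). Without prenatal T ewe 233 they were 0.606 and 0.594, and the exact permutation p was the smallest possible, 0.0286 (adjusted 0.0857 for both). The groups did not overlap there, because ewe 233 was the only prenatal T ewe below control ewe 201. Without control ewe 201 the groups did not overlap either. The differences were then 0.526 and 0.523 (exact permutation p = 0.0857, adjusted 0.257 for both). With all 8 muscles 3.51% of lncRNA rows passed limma, and rows without overlap were not counted. A ratio alone at the smallest p adjusts to 0.171, so these tests could pass only if 4 or more of the 6 ratios reached it. In liver the 3 log2 differences were -0.041, -0.432 and -0.392, with exact p from 0.6 to 0.857. No ratio passed, and with all 8 libraries of a tissue the groups overlapped in all 6.

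The treatment effect in liver was then set against that in muscle in 1 limma model over the 16 libraries. The effect in liver minus that in muscle was -0.67 for MIR133 (SE 0.49, limma adjusted p = 0.733), -0.38 for LOC105604459 (SE 0.43, adjusted p = 0.835) and -1.24 for LOC105603743 (SE 0.95, adjusted p = 0.835). With edgeR these differences were -0.98, -0.51 and -2.16, with unadjusted p of 0.055, 0.281 and 0.0247 and adjusted p of 0.714, 0.789 and 0.506. So 0 of 3 rows passed, beside 0% of 64 miRNA rows and 0% of 82 lncRNA rows. At an unadjusted p under 0.05 limma found 2 miRNA and 4 lncRNA rows, and edgeR 1 and 7. After adjustment limma called 0 and 0, and edgeR 0 and 1.

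The rows most like each member were sought among 233 other miRNA and lncRNA rows, by Pearson's r of log2(jointly scaled reads + 1), as a description with no p. Over the 16 libraries, which form 2 clusters by tissue, MIR133 was most like LOC105604459 (r = 0.999), LOC105603743 (0.994) and LOC114117239 (0.991). LOC114117239 had 372 reads over the 8 muscles and 0 over the 8 livers. Once each library was taken as its deviation from its group mean, MIR133 was most like LOC105616444 (r = 0.907), LOC105604459 (0.868) and MIR380 (0.843), and LOC105603743 came in place 19 (0.724). LOC105604459 was most like LOC105604676 (0.923), LOC114111513 (0.903) and LOC105616444 (0.901). LOC105603743 was most like LOC105604251 (0.867), LOC105607667 (0.752) and MIR133 (0.724), with LOC105604459 in place 11 (0.574).

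The order changed when the deviations were taken in 1 tissue alone. Over the 8 muscles MIR133 was most like LOC105603432 (r = 0.9753), LOC114111513 (0.970) and LOC114109624 (0.967), with LOC105604459 in place 7 (0.958) and LOC105603743 in place 88 (0.460). LOC105604459 was most like LOC105604560 (0.980) there, ahead of LOC114111513 (0.9749) and LOC114109624 (0.973). LOC105603743 was most like LOC105609478 (0.885, a row with 3 muscle reads in all), MIR410 (0.823, 5 muscle reads) and LOC105606870 (0.821). Over the 8 livers MIR133 was most like LOC114111513 (0.968), LOC105616444 (0.928) and LOC114110856 (0.923), with LOC105604459 in place 7 (0.890) and LOC105603743 in place 19 (0.796). LOC105604459 was most like MIR380 (0.909), LOC105604676 (0.900) and LOC114111513 (0.895) in liver, and LOC105603743 like LOC105604251 (0.964), LOC105609544 (0.962) and LOC105604676 (0.912). These deviations share their library and its scaling, and a single library such as the muscle of ewe 255 or the liver of ewe 98 weighs heavily in each r.

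The libraries that stood apart did so for some of these like rows too. LOC105616444 had 34, 47, 32 and 43 reads in control muscles 98, 131, 132 and 201, and 73, 30, 33 and 3 in prenatal T muscles 48, 185, 233 and 255, lowest in ewe 255. In liver it had 108 reads in ewe 98 and 11 to 58 in the others. LOC105604251 had 4 and 2 reads in the livers of ewes 98 and 131, 1 in ewe 185 and 0 in the other 5, so the likeness of LOC105603743 to it in liver rests on 7 reads. LOC114111513 had 20 reads in the liver of ewe 98 and 2 to 5 in the others.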

How the data were processed

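Small RNA libraries (NEBNext kit, total RNA) were made from liver and muscle of 8 ewes, per the labels' protocols. Tools listed in the submitters' processing notes are featureCounts 1.6.1, STAR 2.6.0c and cutadapt 3.2. The genome build and the counting of reads with several matches were not given in the sources used. The values deposited by the authors, 1 table per RNA class, are a normalised signal: the values show reads over 1 size factor per library, class and tissue. All values above 0 were whole multiples of a library's smallest step within 0.001 reads, which gave back the reads used for depth, shares and ratios.

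Comparisons used limma 3.58.1 in R 4.3.3 with a variance trend on log2(value + 1), rows with a mean of at least 5 in the tissue, Benjamini-Hochberg adjustment over the class and a threshold of 0.05. Fold changes are on the log2(value + 1) scale and understate those of low rows. Ratios were tested by exact permutation. Alternatives were edgeR 4.0.16 and DESeq2 1.42.0 on the recovered reads, other filters, pseudocounts, scalings and library sets, and leaving out each library. The fits were tested on simulated data.

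Groups come from the labels. Liver and muscle with the same number come from the same ewe. The deviations of the 2 tissues of a ewe correlated between -0.174 and 0.441 for miRNAs (median -0.0717). For lncRNAs they correlated between -0.213 and 0.592 (median 0.0127). The rows named are the 3 members, the rows of the muscle miRNA list, the 3 rows most like each member over the 16 libraries and by deviations from group means (also within each tissue, added later), and lncRNA rows whose gene overlaps a measured miRNA gene; neighbouring genes were added later, and LOC114111513 is also described by its reads. The members and lists were chosen with earlier results of these data known.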

Additional observations from a re-analysis of the deposited data

Results flagged for a closer look

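Of 36 groups of 4 libraries checked (9 measures in 4 groups), 6 held a library far from the others of its group, by the gap to its nearest neighbour over the range of the group (Dixon's 95% critical value); chance alone flags about 1 in 20 groups, and several of the measures share reads. In control livers, ewe 98 had MIR133 at 0.182% of the reads of the 4 classes, against 0.0294 to 0.0518% in the other 3. The same liver had LOC105604459 at 0.224%, against 0.0597 to 0.0801%. In prenatal T livers, ewe 185 had 0.319 reads of LOC105603743 per MIR133 read (0.141 to 0.165 in the other 3) and 0.192 per LOC105604459 read (0.0927 to 0.105). In prenatal T muscle, ewe 255 had 1.49 reads of LOC105603743 per MIR133 read (0.652 to 0.788 in the other 3) and 1.35 per LOC105604459 read (0.615 to 0.741).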

How the results depend on the processing

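No treatment test of the 3 rows or their ratios passed under any setting run; for the ratios this says little, since the lowest adjusted p, 0.0857 without prenatal T muscle 233, is the smallest exact p (0.0286) after adjustment, and 3 against 3 cannot go below 0.1. Apart from leaving out a library, 131 values kept direction and call, 8 reversed and 4 moved; leaving out 1 library, 191 kept them, 9 reversed and 8 moved. MIR133 in muscle was 0.0964 with the library set as covariate, within set 1 and without ewe 255. As ewe 255 is the only muscle outside set 1, each of these settings in effect leaves out that library. The reversed values counted above include such repeats. Among the 131 values that kept direction and call are the 6 ratios of a setting that used the same reads as the main test. Those 6 could not differ from it. LOC105604459 in muscle was 0.10 in those settings, 0.00625 with edgeR and 0.145 scaled to class reads without the members, which moves the median of all lncRNA rows from -0.07 to 0.24 and LOC105603743 in muscle from 0.28 to 0.61. In liver LOC105603743 was -1.79 with edgeR and -1.97 with DESeq2, against -0.96. Within the larger library set, the log2 difference of LOC105604459 per MIR133 read, prenatal T minus control, was -0.00454 in muscle. That of LOC105603743 per LOC105604459 read was 0.169 in liver. Of lncRNA rows in muscle, 4 passed, 2 with a mean of at least 50, 1 without the variance trend and 0 with all 16 libraries in 1 fit; of lncRNA rows that differed between tissues, edgeR called 1. The cause of these shifts was not tested, except that fewer rows were tested at a mean of at least 50.

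Leaving out each library, muscle fold changes ran from -0.30 to 0.0964 for MIR133, from -0.32 to 0.10 for LOC105604459 and from 0.21 to 0.40 for LOC105603743. In liver they ran from -1.15 to -0.30, from -0.72 to -0.28 and from -1.60 to -0.24. Differences between tissues ran from -0.98 to -0.13, from -0.67 to -0.092 and from -1.88 to -0.52. For the ratio of LOC105604459 to MIR133, the log2 difference, prenatal T minus control, ran from -0.00454 to 0.0119 in muscle. In liver this difference ran from -0.174 to 0.0655 (0.0655, 0.0109 and 0.0253 without ewes 132, 201 and 255). For LOC105603743 to MIR133 it ran from 0.211 to 0.606 in muscle and from -0.888 to 0.0470 in liver. For LOC105603743 to LOC105604459 it ran from 0.215 to 0.594 in muscle and from -0.899 to 0.112 in liver. The last liver difference was 0.0551 and 0.112 without ewes 98 and 131. Calls of lncRNA rows ran from 1 to 4 in muscle and from 0 to 3 between tissues.

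With the ewe as replicate block, the pairing within animals, the differences between tissues were unchanged at -0.67, -0.38 and -1.24, with limma adjusted p of 0.659, 0.796 and 0.796, and it changed no call. With 4 ewes per group, intervals of 0.35 or more to either side limit what could be seen in muscle, and 97 to 614 MIR133 reads limit the liver.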

Other observations

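In reads per 1000000 reads of the 4 classes, the amounts by which LOC105604459 exceeded MIR133 in liver were 423, 283, 303 and 284 in control ewes 98, 131, 132 and 201, and 246, 158, 224 and 144 in prenatal T ewes 48, 185, 233 and 255. The 4 controls lay above the 4 prenatal T ewes. This measure was formed after the values were seen and got no test. In liver 0% of lncRNA rows passed the treatment test, which is not a count of rows without overlap. How many of all rows keep the groups apart was not counted, so no conclusion is drawn from the separation. In muscle the excess ran from 16314 to 20289 per 1000000.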
